A study of Rattus norvegicus with 8 samples.

Results

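The genes described here encode the nucleases of apoptosis and their partners in DNA fragmentation: Dffa, Dffb, Endog, Dnase1, Dnase1l3, Dnase2, Parp1 and Aifm1. They were chosen by name on a rat expression array, where 10 probes carry these 8 gene names out of 41012 probes and 35561 gene names in all (Aifm1 stands there under its older name Pdcd8). Thymocytes came from adrenalectomized male Sprague-Dawley rats, so the animals of both groups had lost the main source of their own glucocorticoid. The thymi of 3 rats were pooled for each preparation, and the cells were cultured for 6 hours either untreated (Control, 4 arrays) or in 100 nM dexamethasone, a synthetic glucocorticoid that kills immature thymocytes (Dex, 4 arrays). The comparison asks whether the transcripts for the machinery that cuts DNA in dying cells change within these 6 hours. The labels do not say that the 4 arrays of a group came from separate preparations, so p-values here measure only how far these arrays differ, and precision is set by how few they are. In such bulk samples fewer cells of a type and less RNA per cell cannot be told apart.

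During apoptosis the genome is cut between nucleosomes, which gives the DNA ladder long known from thymocytes treated with glucocorticoid. Dffb (CAD, the caspase-activated DNase) makes these cuts, and Dffa (ICAD) is both the chaperone that Dffb needs for folding and the inhibitor that holds it inactive until Dffa is cleaved by caspases. Endog (endonuclease G) and Aifm1 (apoptosis-inducing factor) are mitochondrial proteins that can move to the nucleus when mitochondria are breached. Dnase1 and Dnase1l3 are calcium-dependent secreted DNases, and Dnase2 is the acid DNase of lysosomes, which degrades the DNA of engulfed cells. Parp1 adds ADP-ribose chains to proteins at DNA breaks and is cleaved by caspases in dying cells. Release, cleavage or activation of these proteins is not measured by RNA levels.

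The probes on which the results turn are 60 bases long and are placed on genome build rn3 by the file headers. Dffa is read by a pair of probes on the plus strand whose starts lie 8651 bases apart, an upstream probe at chr5:166191205-166191264 and a downstream probe at chr5:166199856-166199915. Their sequences are shown because these probes gave different results for 1 gene, and those of Dffb and Endog because Dffb is the partner of Dffa and Endog moved with the downstream Dffa probe. The Dffb probe spans 1458 genomic bases on the minus strand (chr5:170770642-170772099), more than its own length, so it crosses at least 1 intron, and the Endog probe lies at chr3:9187523-9187582 on the plus strand. Exon and UTR positions on this build are not given in the sources used here. For the downstream Dffa probe, the first 30 bases are printed. No base is marked with a capital.
Dffa upstream: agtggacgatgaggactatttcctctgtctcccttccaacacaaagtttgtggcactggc
Dffa downstream: gcctttaaacacagccaaagcatttgcaaa
Dffb: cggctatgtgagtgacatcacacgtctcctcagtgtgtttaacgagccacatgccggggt
Endog: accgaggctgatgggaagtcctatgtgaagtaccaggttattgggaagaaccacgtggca

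Values are log2 of the processed spot signal after quantile normalization, and changes are Dex minus Control on that scale. All 10 probes were well above background on all 8 arrays. None of the 10 passed limma at an adjusted p of 0.05 (Benjamini-Hochberg, over every probe on the array), against 0.778% of all 41012 probes (319, or 81 with the replicate number as a block). At an unadjusted p under 0.05 there was 1 (upstream Dffa), against 10.6% of all probes, and the signal to noise statistic, named in the study's methods and computed here over all assignments of the arrays, called the same probe, against 6.79% of all probes. In 2 probes every Dex array lay above every Control array (upstream Dffa and the Parp1 probe printed in 1 spot), and such separation in either direction was found for 9.10% of all probes. Counts of 0, 1, 1 and 2 among 10 probes are near these background shares. The members' signal was higher in Dex for 7 probes and lower for 3, with a median change of 0.18 against 0.00033 over all probes. The treatment itself was readable on the arrays: of 10 genes known to respond to glucocorticoid 6 passed, all higher in Dex. These were Ddit4 (3.73), Tsc22d3 (GILZ, 3.59), Dusp1 (3.05), Klf9 (1.98), Fkbp5 (1.73) and Nfkbia (1.41), with adjusted p from 0.000153 to 0.00643. Nfkbia lost the call with the replicate number as a block (0.0673), and Fkbp5, Klf9 and Nfkbia lost it with 75th percentile scaling. With the slide as a fixed block, which compares only Dex array 3 with Control array 1, the 6 changes were 1.53 to 3.75. A single pair of arrays gives no call, so no gene here is said to pass under every alternative. Sgk1, of the same list, went the other way with separate groups (-1.32, adjusted p 0.0503).

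**Figure D1:**
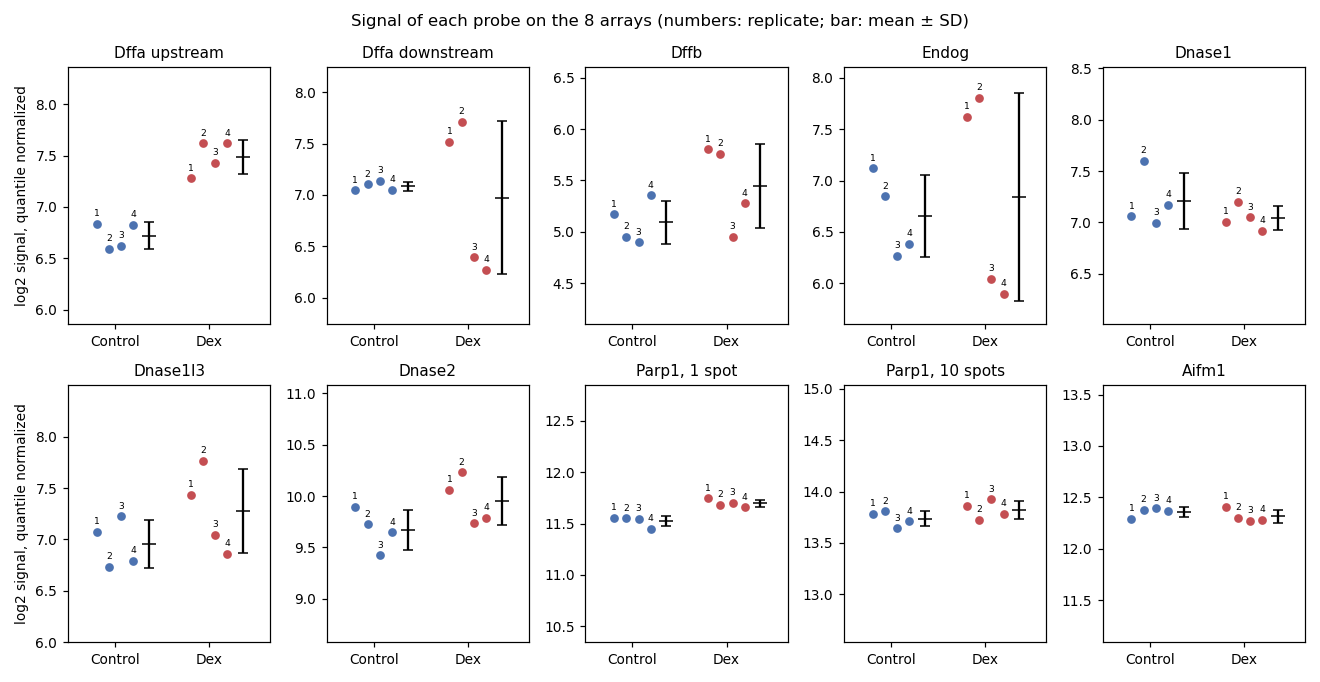
Each panel plots the log2 signal of 1 probe, quantile normalized, on the 4 Control arrays (blue) and the 4 Dex arrays (red), with replicate numbers beside the points and the mean ± SD of each group as a bar; all panels span the same range of log2 units. The upstream Dffa probe separates the groups, the downstream Dffa probe and Endog are split within Dex, and Parp1 and Aifm1 vary little.

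Dffa, the inhibitor and chaperone of the DNase, was the member with the largest change and also the one whose probes disagreed. The upstream Dffa probe read 6.83, 6.59, 6.62 and 6.83 on Control arrays 1 to 4, and 7.28, 7.62, 7.43 and 7.62 on Dex arrays 1 to 4. All Dex arrays were above all Control arrays, also after 75th percentile scaling and normexp background correction. The change was 0.77 ± 0.15 (SE, 4 arrays a group; 95% interval 0.41 to 1.12), a 1.70-fold higher signal, with an adjusted p of 0.0857. The exact two-sided permutation test on this single value gave 0.0286, the smallest p that 4 against 4 arrays allow. It follows from the separation and adds nothing to it. The Parp1 probe printed in 1 spot had the same exact permutation p, and 9.10% of all probes were separate. Within replicate numbers the difference was 0.44 to 1.03. The call depended on the processing: over 17 alternatives the change stayed between 0.48 and 0.84 while its adjusted p ran from 0.01 to 0.771, and the replicate number as a block gave 0.233.

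The downstream Dffa probe gave no such shift. It read 7.05, 7.10, 7.14 and 7.05 in Control, the narrowest Control group of the members (SD 0.04), and 7.52, 7.71, 6.39 and 6.27 in Dex. Dex arrays 1 and 2 were thus above all Control arrays and Dex arrays 3 and 4 below all of them. The mean change was -0.11 (95% interval -0.90 to 0.68, adjusted p 0.939), and the paired differences were 0.47, 0.61, -0.74 and -0.78. The upstream minus the downstream signal was -0.21, -0.51, -0.52 and -0.22 in Control and -0.24, -0.09, 1.04 and 1.35 in Dex. Only the change of this difference between arrays can be read, since probes differ in brightness: it lay between -0.52 and -0.09 on the Control arrays and Dex arrays 1 and 2, and above 1 on Dex arrays 3 and 4. The pair of probes was set against each other after their values had been seen, and no test was made.

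**Figure D2:**
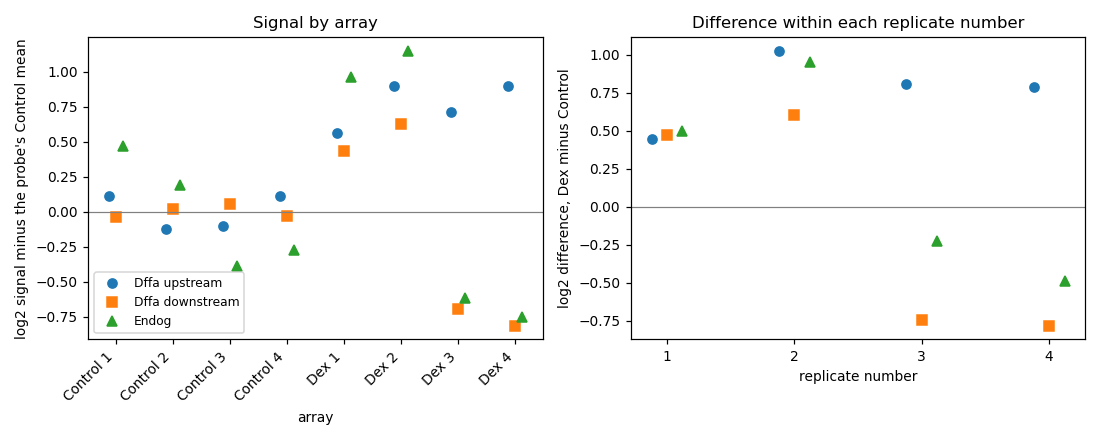
On the left is the log2 signal of the upstream Dffa, downstream Dffa and Endog probes on each array minus that probe's Control mean, and on the right the log2 difference Dex minus Control within each replicate number. Upstream Dffa lies between 0.44 and 1.03, whereas downstream Dffa and Endog are above 0 in numbers 1 and 2 and below 0 in numbers 3 and 4.

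Dffb, the nuclease that Dffa restrains, read 5.17, 4.95, 4.90 and 5.35 in Control and 5.80, 5.76, 4.95 and 5.28 in Dex. Dex arrays 1 and 2 were above all Control arrays, and Dex arrays 3 and 4 lay within the Control range. The change was 0.35 (95% interval -0.18 to 0.89, adjusted p 0.676). Dffb minus downstream Dffa was 0.47 higher in Dex (exact permutation p 0.143), and Dffb minus upstream Dffa was 0.41 lower (exact permutation p 0.171). Both had an adjusted p of 0.171 over these 2 tests. Neither these tests nor the paired ones that follow were planned. In a test chosen after seeing the data, within replicate numbers, the first difference was 0.163, 0.198, 0.80 and 0.706 (exact paired permutation p 0.125, the smallest that 4 pairs allow) and the second 0.190, -0.222, -0.753 and -0.864 (exact paired permutation p 0.25). The opposite signs follow from the disagreement of the Dffa probes, so no direction of nuclease against inhibitor can be read from them.

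Endog, the mitochondrial endonuclease, had the widest spread of all members. It read 7.12, 6.85, 6.27 and 6.38 in Control and 7.62, 7.80, 6.04 and 5.90 in Dex. As with downstream Dffa, Dex arrays 1 and 2 were above every Control array and Dex arrays 3 and 4 below every one, so the mean change of 0.19 had a 95% interval of -0.92 to 1.30 (adjusted p 0.926). Endog and the downstream Dffa probe correlated at 0.885 over the 8 arrays and at 0.918 after the group means were removed, a description of 8 points that share RNA and normalization. The same split was found for 3622 probes (8.83% of all), among them these 2 members, and the opposite split for 3210 (7.83%), with no member among them. It moved with the arrays themselves: 26471 and 24908 probes were well above background on Dex arrays 1 and 2, against 33284 and 33402 on Dex arrays 3 and 4 and 28665 to 34472 in Control. The 75th percentile of intensity was 425 and 401 on Dex arrays 1 and 2, 266 and 264 on Dex arrays 3 and 4 and 318 to 428 in Control. Their part in the split was not tested.

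Of the DNases outside the caspase pathway, the lysosomal Dnase2 had the most even direction. It read 9.89, 9.72, 9.42 and 9.65 in Control and 10.06, 10.23, 9.73 and 9.79 in Dex, higher in Dex in 4 of 4 replicate numbers although the groups overlapped. The change was 0.28 (95% interval -0.14 to 0.70, adjusted p 0.67). Dnase1l3 read 7.07, 6.73, 7.22 and 6.79 in Control and 7.43, 7.77, 7.04 and 6.86 in Dex, a change of 0.32 (95% interval -0.22 to 0.87, adjusted p 0.709). Here too Dex arrays 1 and 2 were the 2 highest of the 8. Dnase1 read 7.06, 7.60, 7.00 and 7.17 in Control and 7.01, 7.20, 7.05 and 6.92 in Dex, with overlapping groups and Control array 2 the highest. It changed by -0.16 (95% interval -0.57 to 0.25, adjusted p 0.81). Because Dnase2 and Dnase1l3 are also made by macrophages and dendritic cells, 15 markers of those cells were read on the same arrays. Of these, 11 were higher in Dex and 0 passed, with 4 at an unadjusted p under 0.05. Their summed linear signal was 5170, 5810, 5350 and 6830 in Control and 8790, 5800, 5300 and 9820 in Dex. The sum was highest on Dex arrays 4 and 1 and followed mainly its brightest gene, Lyz2 (12.51, 11.76, 11.47 and 12.75 in Dex). Dnase2 and Dnase1l3 were highest on Dex arrays 2 and 1. The 4 markers with a low unadjusted p are named for that p: Mrc1, C1qb, C1qc and Fcgr3a. Those lower in Dex were Cd14 (-0.77), Cd163 (-0.24), Emr1 (-0.15) and Cd68 (-0.12). Mrc1, a macrophage receptor, had the largest change in the list (2.12, adjusted p 0.087), which exceeded that of every member. It read 6.81, 6.28, 6.05 and 5.20 in Dex against 3.37 to 4.91 in Control. Its Control mean of 3.97 was below that of every member. With normexp background correction its change was 0.68, beside 0.48 for upstream Dffa. In Dex, Mrc1 and Fcgr3a (10.28, 9.89, 9.78 and 9.83) were highest on arrays 1 and 2, whereas C1qb (9.09, 8.71, 9.49 and 10.01) and C1qc (6.77, 6.50, 7.65 and 7.96) were highest on arrays 4 and 3. The markers Itgam, Cd163, Mertk and Siglec1 were not well above background on every array. Of 14 stromal and epithelial markers 13 were higher in Dex and 1 passed (Pecam1, of endothelium, by 1.36 with an adjusted p of 0.0208, but 0.108 with the replicate number as a block and 0.0621 with 75th percentile scaling), with sums of 3960 to 5480 in Control and 5040 to 6880 in Dex. These sums were mostly the brightest gene, Krt18, which changed by 0.14. Dcn, Lum and Pdgfra were well above background on no array. The part of such cells in the members' signal was not tested. The 3 erythroid markers were higher in Dex and B cell markers were divided 3 to 3, with 0 passing and 0 at an unadjusted p under 0.05 in these 2 lists. Of 15 thymocyte markers, all well above background on all 8 arrays, 11 were lower and 4 higher in Dex (median -0.13), 0 passed, and 4 had an unadjusted p under 0.05, 3 of them lower. Their summed signal was 422000 to 474000 on Control arrays 2 to 4 and 494000, 478000, 386000 and 389000 in Dex, so Dex arrays 1 and 2 lay above and Dex arrays 3 and 4 below these Control sums. Control array 1 is left out of this range, since its Cd8b spot was flagged as an outlier and the fit of Cd8b used 3 Control arrays.

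Parp1 and Aifm1, the members that act at DNA breaks and from mitochondria, were measured most tightly. The Parp1 probe printed in 1 spot (chr13:96529946-96530005) read 11.56, 11.55, 11.55 and 11.45 in Control and 11.75, 11.68, 11.70 and 11.66 in Dex. All Dex arrays were above all Control arrays, by 0.13 to 0.21 within replicate numbers, and the groups overlapped when arrays were scaled to the 75th percentile instead. The change of 0.17 had a 95% interval of -0.13 to 0.47 (adjusted p 0.717). A further Parp1 probe (chr13:96530239-96530298), printed in 10 spots, read 13.78, 13.81, 13.64 and 13.71 in Control and 13.86, 13.72, 13.93 and 13.78 in Dex. The groups overlapped, and the change was 0.09 (95% interval -0.23 to 0.40, adjusted p 0.876). Its 10 spots differed within an array by an SD of 0.0394 to 0.0779.

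Aifm1 read 12.29, 12.38, 12.39 and 12.37 in Control and 12.41, 12.30, 12.27 and 12.28 in Dex. The groups overlapped, with Dex array 1 the highest and Dex array 3 the lowest of the 8. The change was -0.04 with a 95% interval of -0.34 to 0.26 (adjusted p 0.94), among the narrowest of the members. The intervals of Endog and downstream Dffa reached, as Dex over Control, from 0.527 to 2.46 and from 0.534 to 1.60, which leaves room for a change of either sign.

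Only 1 slide carried both groups, with Control array 1 and Dex array 3. Within it the difference was 0.59 for upstream Dffa, close to the value over all arrays, and 0.14 for both Parp1 probes. It was -0.65 for downstream Dffa, -1.08 for Endog and -0.22 for Dffb. Dnase2 was lower by -0.16 there, and Dnase1, Dnase1l3 and Aifm1 differed by -0.0080, -0.031 and -0.022. These are single pairs of arrays with no test, and for the other 6 arrays slide and group cannot be told apart.

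**Figure D3:**
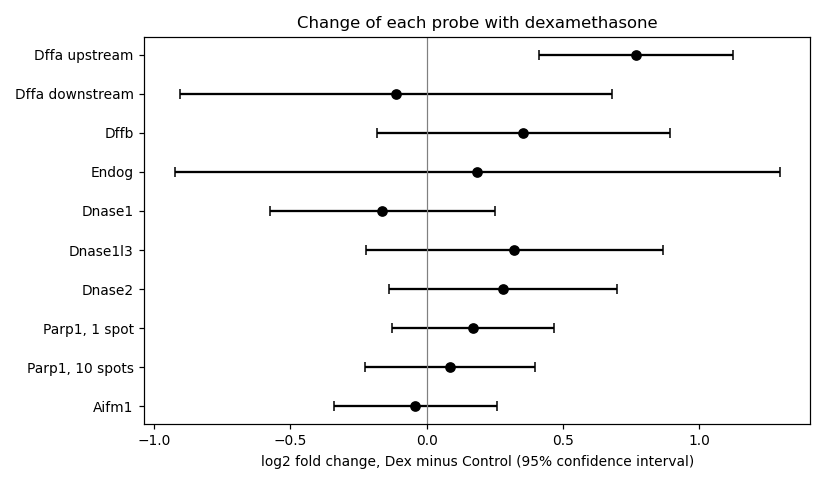
Points are the log2 fold change of each member probe, Dex minus Control with 4 arrays a group, and bars its 95% confidence interval from limma. Only the interval of upstream Dffa (0.41 to 1.12) does not reach 0, and those of Endog and downstream Dffa are the widest.

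**Figure D4:**
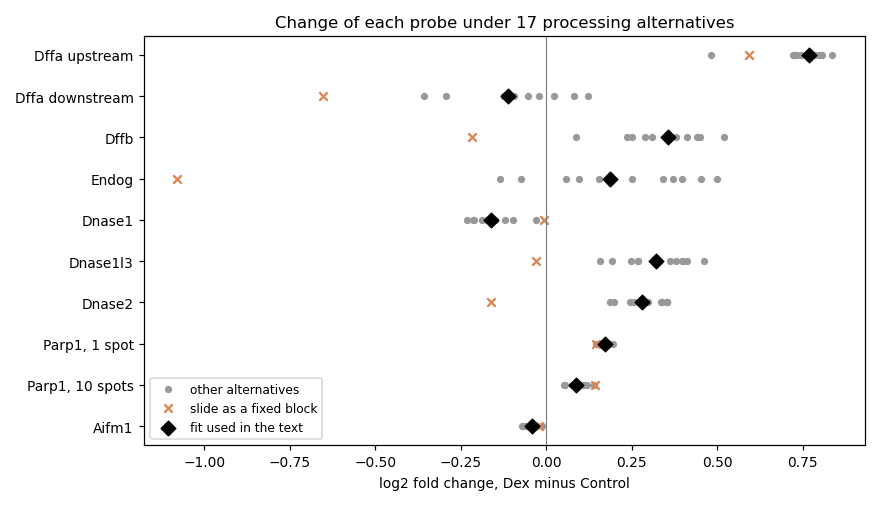
For each member probe the black diamond is the log2 fold change, Dex minus Control, as given in the text, gray points are its values under the other processing alternatives, and orange crosses the value with the slide as a fixed block, which compares Dex array 3 with Control array 1 alone. Upstream Dffa stays between 0.48 and 0.84 throughout, and Endog ranges from -1.08 to 0.50.

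Genes that work beside the members were read from the same fit in 4 lists, of which none had a gene past the adjusted threshold. Of 28 other nucleases 19 were on the array, with 9 higher and 10 lower in Dex (median -0.03) and 0 at an unadjusted p under 0.05, while the signal to noise statistic called 1 (Exo1, an exonuclease of mismatch repair). The flap endonuclease Fen1 had the largest change of those with separate groups, from 14.16 to 14.73 in Control to 13.87 to 14.07 in Dex (-0.38, adjusted p 0.496). It was followed by Dnase1l1, a relative of Dnase1, which read 12.04 to 12.32 in Control and 11.66 to 12.01 in Dex (-0.34, adjusted p 0.501).

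The chromatin and nuclear breakdown partners leaned toward lower signal in Dex, with 19 of 23 genes on the array lower and a median of -0.16. The median was 0.00033 over all probes and -0.037 with dim probes left out. Thymocyte markers leaned the same way (11 of 15 lower), so the lean is not particular to this list. Unadjusted p was under 0.05 for 4 of the 23, all lower, against 10.6% of all probes in either direction. The signal to noise statistic called 3, against 6.79% of all probes. Top2a, the DNA topoisomerase of dividing cells, read 14.18, 14.20, 14.15 and 14.37 in Control and 13.61, 13.49, 13.93 and 13.64 in Dex (-0.55, adjusted p 0.218). Hmgb1, a chromatin protein known to stimulate Dffb, read 16.16 to 16.36 in Control and 15.64 to 15.90 in Dex (-0.55, adjusted p 0.173). Both were separate between groups. Hmgb2, a close relative of Hmgb1, also had a low unadjusted p and is named after its values were seen (-0.50, adjusted p 0.288).

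The 22 genes of ADP-ribose turnover and base repair on the array, the setting of Parp1, were divided evenly, 11 higher and 11 lower, with a median of 0.01 and 0 at an unadjusted p under 0.05. Of 13 mitochondrial death protein genes, the neighbors of Endog and Aifm1, 7 were higher and 6 lower. Cycs, which encodes cytochrome c, read 12.61, 12.61, 12.56 and 12.51 in Control and 12.15, 12.24, 11.94 and 11.91 in Dex, with separate groups (-0.51, adjusted p 0.227). Casp9, the caspase that cytochrome c activates through Apaf1, is named after its value was seen as the other gene of the list with an unadjusted p under 0.05 (0.56, adjusted p 0.46).

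**Figure D5:**
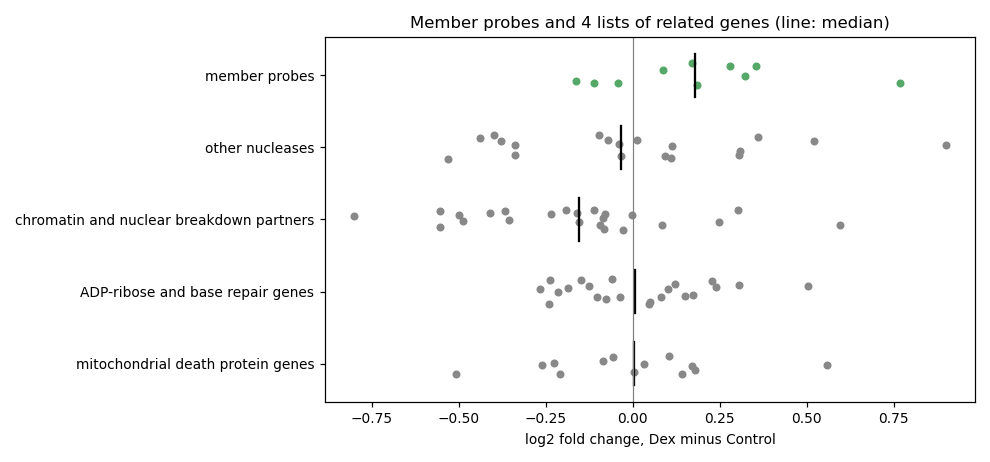
Each point is the log2 fold change, Dex minus Control, of 1 member probe (green) or of 1 gene of a related list (gray, the brightest probe of each gene), and the black line is the median of the row. The medians are 0.18 for the member probes, -0.03 for other nucleases, -0.16 for chromatin partners and close to 0 for the remaining lists; vertical scatter within a row has no meaning.

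Genes whose signal was most like that of a member over the 8 arrays were picked by Pearson correlation from 15432 genes well above background on all arrays. With Dffa (upstream probe) these were LOC690358 (0.989), RGD1305809 and RGD1308684. With Dffb they were Sec61a1 (0.991), Ngrn and RGD1562214, and with Endog LOC680575 (0.997), Mettl18 and LOC368084. Dnase2 was closest to Mvb12a (0.991), Dnase1 to the gene now named Or5b100 (0.964), Dnase1l3 to LOC691221 (0.960), Parp1 to Nope (0.920) and Aifm1 to Fam98a (0.974). With 8 points and so many candidates, high values are found for any pattern, and they describe likeness across these arrays alone.

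Promoter sequence, 250 bases before to 50 after the gene start, was taken from RefSeq (build GRCr8) for 7 of the 8 members, all but Dnase2. The full glucocorticoid response element, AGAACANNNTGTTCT, was in none of these 7 windows and in 0.0149% of 33469 rat promoters. Its core hexamer alone, AGAACA or TGTTCT on the other strand (both are contained in the full element), was in 2 of them, Dffa and Dnase1, against 20.7% of all promoters. Both are shown with the hexamer in capitals, since Dffa is the member with the largest change. The Dffa run lies on the plus strand at chr5:164823609-164823638, its hexamer at -186 from the start, and the Dnase1 run on the minus strand at chr10:12008331-12008360, its hexamer at -104.
Dffa promoter: tggagaaagaaaAGAACAggaaaaagagat
Dnase1 promoter: aggcagccccatTGTTCTgtgctctcaggt
A match of letters is no evidence of binding, and these windows hold only sequence next to the start. The windows differed in base composition: Parp1 had 37 CpG and 70.3% GC, Dffb 28 CpG, Aifm1 20 and Endog 17, whereas Dnase1 had 2 and Dnase1l3 had 1, against a median of 7 over all promoters.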

How the data were processed

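Thymocyte RNA was labeled and read by the authors on 8 Agilent Whole Rat Genome arrays in 1 color. The deposited scanner output holds each spot's processed intensity from Feature Extraction (version 9.5.3.1 per the file headers), background-subtracted and not normalized between arrays, with flags for background and outliers. The authors also deposited log2 values, quantile normalized and summarized per probe by median polish. Both steps were recomputed from the intensities (correlation with the deposited values at least 0.999999) without control spots and flagged outliers, which left 16 missing values. No non-control spot was saturated.

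limma (version 3.58.1, R version 4.3.3) was fitted to all probes, with moderated two-sided tests and no block. On simulated arrays 22 of 100 probes changed by 1 log2 unit were recovered and 47 of 100 changed by 2, with 5 false calls. The signal to noise statistic was referred to its values over all 70 assignments of arrays, pooled over probes, so its p can be smaller than an exact p for 1 probe. It was called at p 0.01 and 1.2-fold, and how the paper drew its permutations was not repeated. Every member probe is named, and of the lists of related and control genes (the brightest probe of each gene) any passing gene, with the 2 largest changes with separate groups in the related lists. Marker lists are given by counts and, except for B cell and erythroid markers, by sums. Single markers are named where they passed, were brightest, dim or flagged, had a low unadjusted p, or were lower in the macrophage list. One gene of the lists is counted and not reported here by name. Members and lists were chosen with earlier results of these data known. The paper states 3 biological replicates without naming arrays, so all 8 entered.

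Arrays with the same replicate number in the labels deviated together from their group means (correlations 0.397, 0.129, 0.55 and 0.184, all over 0.1). They were taken as pairs only in the replicate block and in differences within replicate numbers, not in the main fit. Some unmatched numbers correlated more than matched ones. Dex 2 did so with Control 1 (0.401) rather than Control 2 (0.129), and Dex 4 with Control 3 (0.392) rather than Control 4 (0.184). The arrays thus also divide into numbers 1 and 2 against 3 and 4. Slides were read from the files: Control arrays 2 to 4 shared 1, and Dex arrays 1, 2 and 4 another. Alternatives were 75th percentile scaling, normexp, the deposited table, leaving out dim probes or each array, and blocks for replicate number, slide and, chosen after seeing the data, the first against the last 2 replicate numbers.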

Additional observations from a re-analysis of the deposited data

Results flagged for a closer look

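One value among the members stood apart from its group. For the Parp1 probe printed in 1 spot, Control array 4 (11.45) lay below the nearest of the other Control arrays (11.55) by 0.885 of the range of the group, past Dixon's 95% limit for 4 samples. Chance alone gives about 1 in 20 groups past this limit, and 20 groups were examined here (10 probes in Control and in Dex), of which this was the only one.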

How the results depend on the processing

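The count of member probes past the threshold was 0 and became 1, upstream Dffa, with normexp background correction (adjusted p 0.0126), with dim probes left out (0.0373), with the slide as a random block (0.01, at an estimated correlation of -0.235 within slides) and by the signal to noise statistic. Without any single array it was 0. The replicate numbers as a block (paired fit) left 0 member probes and 81 of all probes, changing no member's call. Over all probes 319 passed (316 in the deposited table): 166 with 75th percentile scaling, 915 with normexp, 562 with dim probes left out, 1838 with the slide as a random block, 1 with the slide as a fixed block, 2784 by signal to noise, 670 with the first 2 replicate numbers blocked against the last 2 (chosen after seeing the data), and 96 to 249 with 1 array left out, the fewest without Control array 4. The causes were not tested, except that fewer arrays or probes enter some of these fits.

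Of 170 values of member probes under alternatives, 157 kept direction and side of the threshold, 4 gained the call (all upstream Dffa) and 9 changed sign. Downstream Dffa turned to 0.021 with 75th percentile scaling, 0.081 without Dex array 3 and 0.12 without Dex array 4, and ran from -0.36 to 0.12 with 1 array left out. Endog turned to -0.074 without Dex array 1 and -0.13 without Dex array 2, and ran from -0.13 to 0.50 with 1 array left out. In the same fits Dnase1 ran from -0.23 to -0.032 (the latter without Control array 2) and Dnase1l3 from 0.16 (without Dex array 2) to 0.46. Dffb ran from 0.24 to 0.52 and Dnase2 from 0.19 to 0.35. With the slide as a fixed block, which compares only Dex array 3 with Control array 1, Endog was -1.08, Dffb -0.22, Dnase2 -0.16 and Dnase1l3 -0.031. Of the related lists, other nucleases went from 0 to 1 by signal to noise (Exo1). Chromatin partners went from 0 to 2 with normexp and the random slide block and to 3 by signal to noise, all among Top2a, Hmgb1 and Hmgb2. Mitochondrial genes went from 0 to 1 under the same 3 alternatives (Cycs). In simulation with 4 arrays a group, 22 of 100 changes of 1 log2 unit and 47 of 100 of 2 log2 units were recovered, so most changes of either size were missed.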
